A study of Mus musculus with 9 samples.

Results

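The phagocyte NADPH oxidase was followed through 5 of its genes, Cybb, Cyba, Ncf1, Ncf4 and Rac2, in stromal vascular fractions (SVFs) of mouse inguinal fat. Its probe sets were those whose array annotation gives exactly 1 gene symbol, equal to 1 of these names. They numbered 10 of the 45101 probe sets on the array, 3 each for Cybb and Ncf1, 2 for Rac2 and 1 each for Cyba and Ncf4. All 5 genes were measured and tested, among 11796 genes tested. The SVF is the cell pellet of enzyme-digested fat without its mature adipocytes, and holds stromal cells, vessel cells and leukocytes. The SVFs came from wild type mice of the strain Balb/c, aged 10 weeks. The study injured inguinal fat by surgery, and the labels put 3 mice on each of days 0, 1 and 3 after injury. The labels call the samples biological replicates of priming and name the injury. They do not name the ischemia that the study's methods add to it, and they leave unsaid whether the day 0 mice were operated on, so the groups are called here by day. The study itself treats the SVFs of day 0 as nonprimed and those of days 1 and 3 as primed. The microarray read RNA of the whole fraction, so a change in a signal can come with more cells of a type or with more RNA in each cell, and these cannot be told apart.

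The oxidase is the enzyme with which neutrophils, monocytes and macrophages make superoxide from oxygen, using NADPH as the electron donor. Its catalytic subunit and a small partner sit in the membrane as a pair, while the regulatory subunits wait in the cytosol and join them, together with the GTPase Rac, when the cell is stimulated. People who lack a working copy of one of the main subunits have chronic granulomatous disease, in which phagocytes take up bacteria and fungi but kill them poorly.

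Mice of day 0 had 25677 to 26299 probe sets called present, those of day 1 24106 to 25557 and those of day 3 25069 to 25292. For Gapdh the 3' signal divided by the 5' signal, a reading of RNA integrity and labelling, was 0.537 to 0.592, 0.671 to 0.693 and 0.633 to 0.709 on days 0, 1 and 3. The same ratio for actin was 1.21 to 1.26, 1.20 to 1.32 and 1.15 to 1.19. Days 1 and 3 did not overlap with day 0 in the present calls or in the Gapdh ratio, nor day 3 in the actin ratio, and the part of these in the results was not tested. The log2 signals correlated with r of 0.97 to 0.99 between mice of the same day and 0.90 to 0.97 between days. Markers of stromal and of blood-derived cells were read on every day, with summed signals of the 8 stromal progenitor markers at 108127 to 145657 and of the 9 leukocyte markers at 74282 to 104273.

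On day 1 after injury 4 of the 5 genes rose and 1 fell. The membrane pair Cybb and Cyba and the cytosolic subunits Ncf1 and Ncf4 rose between 1.60-fold and 2.16-fold, and in each of them all 3 day 1 mice lay above all 3 day 0 mice. Rac2, the GTPase of the active complex in blood cells, was 1.66 times lower. By limma with adjustment over all genes, 10.7% of genes were called higher and 17.9% lower on day 1, and 13.8% of genes had day 1 mice that all lay above the day 0 mice. The median change was 0.75 on the log2 scale over the 5 genes and -0.13 over all genes tested. On day 3 Ncf1 and Ncf4 were still called higher and Rac2 lower, against backgrounds of 13.6% of genes called higher and 12.5% called lower. The groups of day 3 and day 0 mice did not overlap for any of the 5 genes, higher for 4 and lower for 1, and this held for 22.6% of all genes upwards and 24.6% downwards. The median change on day 3 was 0.43 over the 5 genes and -0.03 over all genes. Of the genes called on day 1, 62.5% were lower, a share that became 42.8% when the arrays were centred on their medians and 53.6% after quantile normalization. For day 3 against day 1 the shares lower were 32.0%, 56.6% and 42.6%. Median centring brought the median change of all genes on day 1 to -0.01, and the 5 genes kept their directions on days 1 and 3 under both scalings.

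**Figure D1:**
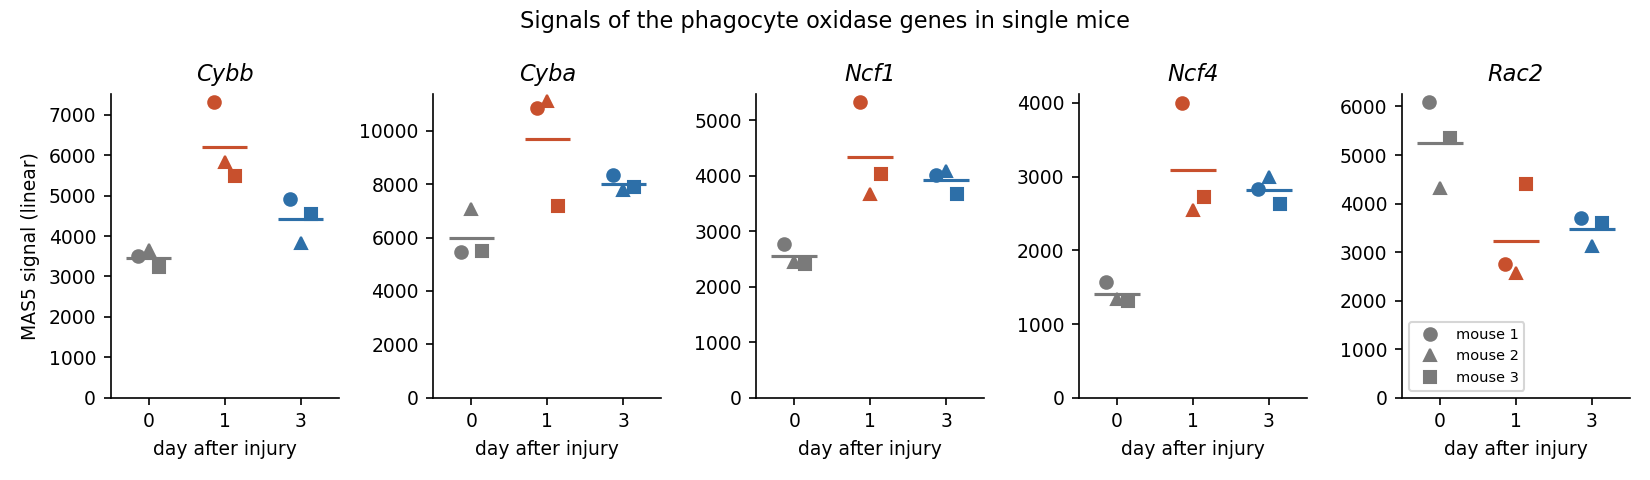
MAS5 signal, on a linear scale from 0, of the probe set used for each oxidase gene against the day after injury. Each symbol is 1 mouse and each line the mean of 3 mice. Cybb, Cyba, Ncf1 and Ncf4 are highest on average on day 1 and Rac2 on day 0, and in Rac2 mouse 3 of day 1, at 4397, lies above mouse 2 of day 0, at 4318.

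Cybb encodes gp91phox, also called NOX2, the subunit that carries electrons across the membrane. Its brightest probe set gave signals of 3505, 3643 and 3225 in the day 0 mice, 7319, 5823 and 5494 in the day 1 mice and 4907, 3838 and 4555 in the day 3 mice. The order of the days was day 1, day 3 and day 0, with no overlap between any of the groups. The mean was 6212 ± 973 on day 1 and 3458 ± 213 on day 0 (SD, n = 3 each), a log2 change of 0.84 ± 0.13 (SE, limma adjusted p = 0.00107). On day 3 the mean was 4433 ± 545 (SD, n = 3) and the log2 change against day 0 was 0.35 ± 0.13 (limma adjusted p = 0.0700), which did not pass the threshold although its unadjusted 95% interval ran from 0.06 to 0.64. This day 3 value passed when day 1 mouse 1 (adjusted p = 0.0391) or day 1 mouse 3 (adjusted p = 0.0482) was left out of the limma fit. Cybb was the gene of the 5 that limma called between the later days, with a log2 difference of -0.48 ± 0.13 between day 3 and day 1 (limma adjusted p = 0.0321). Among all genes 9.66% were called higher and 4.54% lower in that comparison, and in 11.5% all day 3 mice lay below all day 1 mice. The call rested on few mice. It was lost when any of 5 mice was left out, with a limma adjusted p of 0.0950 without day 1 mouse 1, 0.0590 without day 1 mouse 2, 0.0544 without day 3 mouse 1, 0.136 without day 3 mouse 2 and 0.0684 without day 3 mouse 3.

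The other Cybb probe sets rose on day 1 as well. Probe set 1436779_at gave 1212, 1429 and 1247 on day 0, 3250, 2533 and 2115 on day 1 and 1728, 1596 and 1699 on day 3. Probe set 1422978_at gave 1401, 1666 and 1132 on day 0, 3065, 2466 and 2247 on day 1 and 1780, 1034 and 1667 on day 3, where mouse 2 lay below all day 0 mice. In a fit over the 24920 present probe sets, their day 1 changes were 1.00 and 0.89 on the log2 scale (limma adjusted p = 0.00104 and 0.0139). In that fit 8.0% of probe sets were called higher and 14.3% lower on day 1, 9.72% and 9.75% on day 3, and 6.19% and 3.15% on day 3 against day 1. The 3 Cybb probe sets were all called lower on day 3 than on day 1, with log2 differences of -0.48, -0.63 and -0.82, and none was called against day 0 on day 3. They measure 1 gene on the same arrays and are not independent.

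The promoters of Cybb, Cyba and Ncf1 are shown with their boxes of the ETS factor PU.1, encoded by Spi1, and of interferon regulatory factors. The part of these factors in the changes was not tested. PU.1 and interferon regulatory factors are known regulators of CYBB in human myeloid cells. RefSeq promoters of the GRCm38.p6 build, each with 250 bases before the gene's start and 50 after it, were held for these 3 of the 5 genes. They were searched on both strands for GAGGAA, a PU.1 box, and for AANNGAAA, an interferon regulatory factor box, and matches are in capitals.

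Cybb promoter: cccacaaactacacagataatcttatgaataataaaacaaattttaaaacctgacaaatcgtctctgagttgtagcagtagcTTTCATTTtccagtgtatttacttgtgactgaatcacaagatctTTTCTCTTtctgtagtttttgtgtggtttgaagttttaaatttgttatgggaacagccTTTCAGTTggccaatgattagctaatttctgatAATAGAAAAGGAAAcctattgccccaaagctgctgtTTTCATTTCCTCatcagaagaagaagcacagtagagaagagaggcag

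Cyba promoter: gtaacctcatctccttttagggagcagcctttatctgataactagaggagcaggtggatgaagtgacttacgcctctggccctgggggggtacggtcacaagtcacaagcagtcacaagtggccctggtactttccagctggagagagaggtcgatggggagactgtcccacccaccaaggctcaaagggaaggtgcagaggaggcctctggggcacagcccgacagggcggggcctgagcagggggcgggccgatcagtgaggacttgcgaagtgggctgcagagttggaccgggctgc

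Ncf1 promoter: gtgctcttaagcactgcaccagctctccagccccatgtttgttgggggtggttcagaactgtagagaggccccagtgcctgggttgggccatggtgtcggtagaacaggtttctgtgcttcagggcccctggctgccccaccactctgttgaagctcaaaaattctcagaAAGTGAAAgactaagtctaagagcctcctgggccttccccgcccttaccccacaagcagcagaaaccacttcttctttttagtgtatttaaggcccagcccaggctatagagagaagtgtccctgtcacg

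The Cybb window, chrX:9469275-9469574 on the minus strand, had 1 match to GAGGAA, read on the opposite strand at 10 to 15 bases after the start, and 6 matches to AANNGAAA. The PU.1 box shared 2 bases with the last of the 6, and the matches at bases -33 to -26 and -27 to -20 overlapped each other. The Ncf1 window, chr5:134229576-134229875 on the minus strand, had 1 match to AANNGAAA, at bases -80 to -73 relative to the start, and none to GAGGAA. The Cyba window, chr8:122432891-122433190 on the minus strand, had neither and stands in lower case throughout. Of 32851 mouse promoters of this length 28.28% held GAGGAA at least once, 23.92% held AANNGAAA and 7.117% held both, so single matches are common. The share with 6 matches to AANNGAAA was not counted.

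Cyba encodes p22phox, the small partner that the catalytic subunit needs to be stable in the membrane. Its only probe set gave 5445, 7060 and 5483 on day 0, 10834, 11107 and 7176 on day 1 and 8322, 7792 and 7878 on day 3. The lowest day 1 mouse, mouse 3, lay just above the highest day 0 mouse and below all 3 day 3 mice. The mean was 9706 ± 2195 on day 1 and 5996 ± 922 on day 0 (SD, n = 3 each), a log2 change of 0.68 ± 0.16 (limma adjusted p = 0.0110). On day 3 the mean was 7998 ± 284 (SD, n = 3) and the log2 change was 0.43 ± 0.16 (95% interval 0.07 to 0.78, limma adjusted p = 0.0742), which missed the threshold. It passed without day 0 mouse 2 (adjusted p = 0.0452) or without day 1 mouse 3 (adjusted p = 0.0125) in the limma fit. Day 3 and day 1 differed by -0.25 (95% interval -0.61 to 0.10, limma adjusted p = 0.314), and by -0.46 without day 1 mouse 3 (adjusted p = 0.0207).

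Ncf1 encodes p47phox, the organizer whose phosphorylation starts the move of the cytosolic subunits to the membrane. Its brightest probe set gave 2770, 2454 and 2420 on day 0, 5338, 3665 and 4030 on day 1 and 4014, 4090 and 3680 on day 3. Every mouse of days 1 and 3 lay above every day 0 mouse, while the groups of days 1 and 3 overlapped. The log2 change was 0.75 ± 0.14 on day 1 (1.69-fold, limma adjusted p = 0.00265) and 0.63 ± 0.14 on day 3 (1.54-fold, limma adjusted p = 0.00669). Day 3 minus day 1 was -0.13 (95% interval -0.43 to 0.17, limma adjusted p = 0.560). Probe set 1451767_at ran from 1114 to 1462 over the day 0 mice, 1888 to 3210 over the day 1 mice and 1715 to 2140 over the day 3 mice, and was called on day 1 (0.87, limma adjusted p = 0.00828) but not on day 3 (0.56, adjusted p = 0.0546). Probe set 1425609_at, the dimmest of the 3, had log2 changes of 0.66 on day 1 and 0.45 on day 3 and passed on neither (limma adjusted p = 0.0567 and 0.192), and its groups overlapped on both days.

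Ncf4 encodes p40phox, which binds a lipid of the phagosome membrane and supports the oxidase there. Its probe set gave 1570, 1335 and 1313 on day 0, 3991, 2551 and 2727 on day 1 and 2827, 2996 and 2626 on day 3. This was the largest change of the 5 genes on both days, and the day 0 mice were apart from all others. The log2 change was 1.11 ± 0.16 on day 1 (2.16-fold, 95% interval 1.69 to 2.76, limma adjusted p = 0.000609) and 1.00 ± 0.16 on day 3 (2.01-fold, 95% interval 1.57 to 2.56, limma adjusted p = 0.00103). Larger changes in either direction were seen in 5.67% of all genes on day 1 and 8.39% on day 3. Day 3 minus day 1 was -0.11 (95% interval -0.46 to 0.25, limma adjusted p = 0.688). Leaving out any 1 mouse kept the calls of Cybb, Cyba, Ncf1 and Ncf4 on day 1 and of Ncf1 and Ncf4 on day 3, and the highest of these adjusted p-values was 0.0495, for Cyba on day 1.

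Rac2 encodes the Rac GTPase of blood cells, which activates the catalytic subunit and also serves cell movement, and which lymphocytes express too. Its brighter probe set gave 6090, 4318 and 5353 on day 0, 2756, 2562 and 4397 on day 1 and 3694, 3133 and 3607 on day 3. Mice 1 and 2 of day 1 lay below every mouse of the other days, and mouse 3 of day 1 lay within the day 0 range. The mean was 3238 ± 1008 on day 1 and 5254 ± 890 on day 0 (SD, n = 3 each), a log2 change of -0.73 ± 0.19 (limma adjusted p = 0.0176). On day 3 the mean was 3478 ± 302 (SD, n = 3) and the log2 change against day 0 was -0.58 ± 0.19 (limma adjusted p = 0.0443), with no overlap. Day 3 minus day 1 was 0.14 (95% interval -0.28 to 0.57, limma adjusted p = 0.650).

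Both Rac2 calls depended on single mice. The day 1 call was lost in the limma fit without day 0 mouse 1 (adjusted p = 0.0673), day 0 mouse 3 (0.0602), day 1 mouse 1 (0.0657) or day 1 mouse 2 (0.0662). The day 3 call was lost without day 0 mouse 1 (adjusted p = 0.143), day 0 mouse 3 (0.112), day 3 mouse 1 (0.0849), day 3 mouse 2 (0.148) or day 3 mouse 3 (0.0818). The dim second probe set, 1440208_at, gave signals from 65.6 to 135 over the 9 mice and was called present in 3, 2 and 2 mice on days 0, 1 and 3. Its log2 changes were -0.43 on day 1 and -0.20 on day 3 (limma adjusted p = 0.215 and 0.604), and with adjustment over probe sets the brighter one missed the threshold on day 3 (adjusted p = 0.0538). Over all 10 probe sets, 7 were called higher and 1 lower on day 1, where 8.0% of all probe sets were higher and 14.3% lower. On day 3 2 were called higher, where 9.72% of all probe sets were, and 3 were lower on day 3 against day 1, where 3.15% of all were. Probe sets of 1 gene share its RNA, so these counts are not counts of independent measurements.

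**Figure D2:**
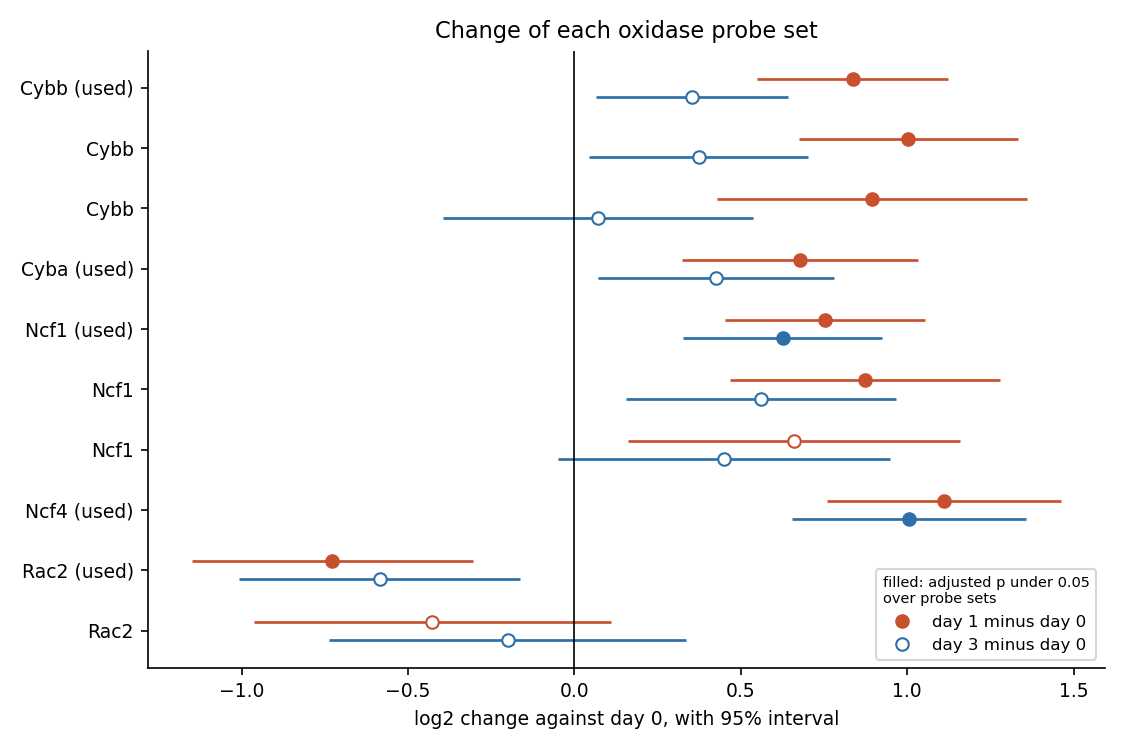
Log2 change against day 0, with 95% interval, of each of the 10 oxidase probe sets on day 1 and day 3, from the fit over probe sets. Rows are in the order of the text, brightest first within a gene, and "used" marks the probe set that stands for the gene. The 8 probe sets of Cybb, Cyba, Ncf1 and Ncf4 lie right of 0 on both days, at 0.07 to 1.11, and those of Rac2 left of it, at -0.73 to -0.20.

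Because the genes were read on the same arrays, their changes could be set against each other within each mouse, as a log2 ratio of the 2 signals. There were 10 pairs on each day, and 3 mice against 3 cannot give an exact two-sided permutation p under 0.1, so these differences are descriptions. The log2 ratio did not overlap between day 1 and day 0 for 4 of the 10 pairs, and for 39.0% of all pairs of tested genes. On day 3 it did not overlap with day 0 for 8 of the 10 pairs, and for 48.5% of all pairs. Relative to Rac2, Cybb, Ncf1 and Ncf4 gained 1.48 to 1.84 on day 1 with no overlap between the mice of day 1 and day 0, and Cyba gained 1.41 with overlap. On day 3 all 4 gained between 0.94 and 1.59 relative to Rac2 and none overlapped. The pairs with Rac2 share its signal and are not independent. Among the other 6 pairs 1 did not overlap on day 1, Ncf1 against Ncf4, with a difference in log2 change of -0.36. On day 3 4 of the 6 did not overlap, and the widest difference was that of Cybb against Ncf4, at -0.65.

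Across the 9 mice Ncf1 and Ncf4 ran closely together, with Pearson's r of 0.994 (Spearman's coefficient 0.983) and 0.992 once the day means were removed. Of all genes tested Ncf4 was the one most like Ncf1, and Ncf1 the one most like Ncf4. Cyba and Rac2 ran against each other, with r of -0.960 (Spearman's coefficient -0.917) and -0.920 within days: mouse 3 of day 1, low in Cyba among its group, was high in Rac2, as was the reverse for mouse 2 of day 0. The other pairs ran less closely. With Rac2, Cybb, Ncf1 and Ncf4 had r of -0.73, -0.73 and -0.77, and -0.25, -0.03 and -0.11 within days. Within days Cyba had r of 0.10 with Ncf1 and 0.16 with Ncf4. Cybb had 0.56, 0.57 and 0.56 within days with Cyba, Ncf1 and Ncf4. These correlations describe 9 arrays, 3 of each day, which share their scaling and their day. After Ncf4 and Ncf1, the genes most like each of the 5 by Pearson's r over the 9 arrays were Snx10, Il18 and Gla for Cybb (0.973, 0.968 and 0.963), Tfpi, Rps27l and Psmd1 for Cyba (0.991, 0.987 and 0.987), Cflar and Uck2 for Ncf1 (0.981 and 0.978), Cers6 and Rnf149 for Ncf4 (0.986 each) and Trit1, Dennd5b and Trim56 for Rac2 (0.988, 0.986 and 0.986). Ncf4 and Rac2 lie on chromosome 15 with 10 protein-coding genes between them. Of the 7 tested, 2 were called on day 1, both higher, where 10.7% of all genes were higher: Csf2rb (0.80, limma adjusted p = 0.00135) and Csf2rb2 (0.56, adjusted p = 0.0229), which encode receptor subunits for growth factors of myeloid cells. On day 3, where 13.6% of all genes were higher, Csf2rb (0.87), Csf2rb2 (0.61), C1qtnf6 (0.82) and Kctd17 (0.45) were called higher (limma adjusted p = 0.000678, 0.0160, 0.000843 and 0.0322).

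**Figure D3:**
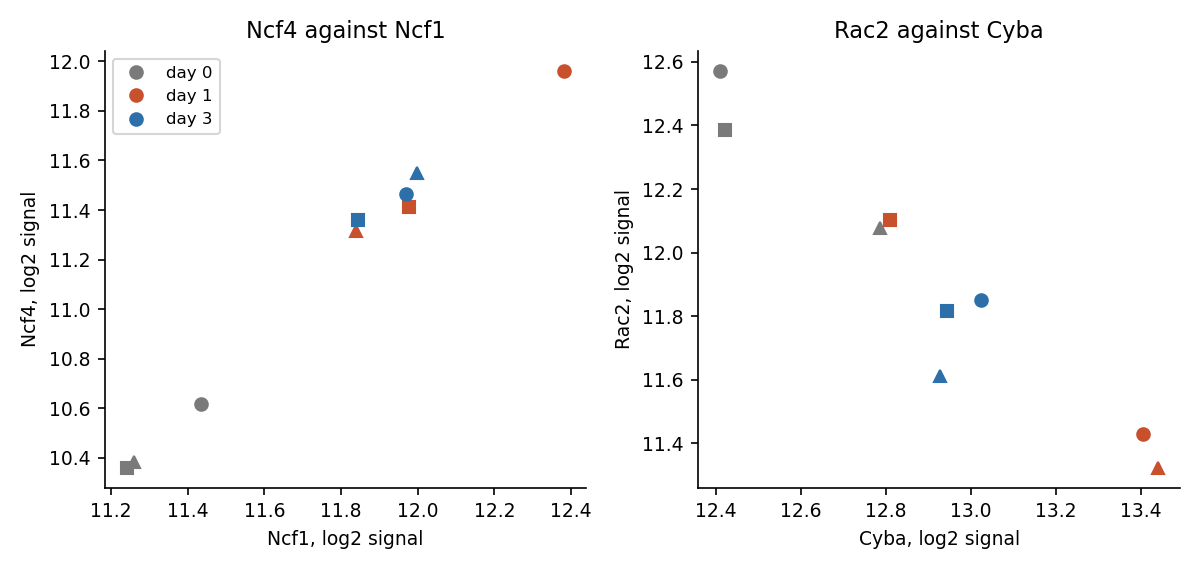
Log2 signal of Ncf4 against Ncf1 and of Rac2 against Cyba, each symbol 1 mouse, coloured by day, with a circle for mouse 1, a triangle for mouse 2 and a square for mouse 3 of that day. Ncf4 and Ncf1 rise along a line over the 9 mice (r = 0.994), and Rac2 runs downward against Cyba (r = -0.960).

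Marker lists of neutrophils, monocytes and macrophages were higher on days 1 and 3, which does not tell more cells from more RNA in each cell. Not all leukocyte types went this way: the dendritic cell, B cell and T cell lists, given further below, were lower. The lists are given as the mean log2 signal of the tested markers relative to day 0. Counts of markers called stand beside 10.7% of all genes called higher and 17.9% lower on day 1, and 13.6% and 12.5% on day 3. The neutrophil list stood at 3.47 to 3.91 on day 1 and 2.03 to 2.55 on day 3, and its summed signal was 2552 to 2688 on day 0, 42677 to 73944 on day 1 and 9852 to 21331 on day 3. Of these 8 markers 3 were not called present in every day 0 mouse, Cxcr2, Mmp8 and Ngp, and were tested through their signals on later days. Over the 5 markers present in all 9 mice, a choice made after seeing the data, the list stood at 3.17 to 3.81 on day 1 and 1.67 to 2.49 on day 3. Of 14 neutrophil markers listed, 11 were named on the array and 8 tested. Limma called 7 of these higher on day 1 and 5 on day 3, with the smallest log2 change at 0.30 and 0.44. These counts include Cxcr2, Mmp8 and Ngp. Of the 5 markers present in all 9 mice, 4 were called higher on day 1 and 3 on day 3. The first markers of the neutrophil list, the calprotectin genes S100a8 and S100a9, were called present in every mouse. They were 74.7-fold and 69.1-fold higher on day 1 and 17.2-fold and 13.5-fold higher on day 3. Their signals were at least 17203 and 19195 in the day 1 mice, a large part of the summed signal of the neutrophil list. The monocyte list stood at 2.47 to 2.82 on day 1 and 1.64 to 1.77 on day 3, with a summed signal of 36579 to 38833 on day 0, 58251 to 62785 on day 1 and 43747 to 45680 on day 3. Chil3 and F10 were called present in no day 0 mouse, and over the other 5 markers, present in all 9 mice, the list stood at 0.96 to 1.22 on day 1 and 0.80 to 0.81 on day 3, with 3 of the 5 higher on each day. Ccr2, the chemokine receptor of inflammatory monocytes, was 6.11-fold higher on day 1 and 5.42-fold higher on day 3. The macrophage list stood at 0.44 to 0.67 on day 1 and 0.42 to 0.67 on day 3. Of its 12 markers 5 were higher and 1 lower on each day. Its summed signal was 74447 to 84620, 86526 to 103650 and 91726 to 112052 on days 0, 1 and 3. The median log2 change of its markers was 0.24 on day 1 and 0.29 on day 3, and the largest was that of Fcgr1, at 3.91 and 3.23. Its first markers were Adgre1, at 0.71 and 1.40, and Csf1r, at -0.47 and 0.13. The marker called lower was Csf1r on day 1 and Timd4 on day 3 (-1.20). The general leukocyte list moved less than these, at 0.32 to 0.46 on day 1 and 0.06 to 0.25 on day 3. Of its 9 markers 4 were higher on day 1, and 3 were higher and 3 lower on day 3. Its largest changes were those of Fcer1g (1.66 and 1.60) and Tyrobp (1.24 and 1.00). Its first markers were Ptprc, at -0.21 and -0.43, and Cd53, at 0.38 and -0.01. The 3 lower on day 3 were Ptprc, Coro1a (-0.67) and Cd52 (-0.81). The eosinophil list, with 2 tested markers, stood at 0.50 to 0.64 on day 1 and -0.15 to 0.84 on day 3. The part of these lists in the rises of Cybb, Cyba, Ncf1 and Ncf4 was not tested.

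Lymphocyte marker lists were lower on days 1 and 3, the days on which Rac2 was lower. This was not particular to lymphocytes. The dendritic cell, stromal progenitor, endothelial cell and adipocyte lists also lay below the day 0 mean in every mouse of those days, at -0.98 to -0.10. The B cell list stood at -1.49 to -0.31 on day 1 and -1.80 to -0.83 on day 3, with 3 and 4 of its 6 tested markers called lower and a summed signal of 13139 to 20215, 5618 to 12508 and 4091 to 8207 on days 0, 1 and 3. The T cell list stood at -2.34 to -0.53 on day 1 and -1.63 to -0.98 on day 3, with 4 of 6 markers lower on each day and a summed signal of 18283 to 21787, 4369 to 13818 and 6327 to 9980. Mouse 3 of day 1, the highest of its group in Rac2, was also the highest of its group in both lists, and mouse 2 of day 3, the lowest of its group in Rac2, was the lowest of its group in the B cell list. Other mice ran the other way. The lowest mouse of day 1 in Rac2 was mouse 2, while in both lists it was mouse 1. Mouse 1 of day 3 had the highest Rac2 signal of its group, 3694, and the lowest T cell value, -1.63. Mouse 1 of day 0 had the highest Rac2 signal of all, 6090, with the highest B cell value of its group, 0.47, and the lowest T cell value, -0.05. The part of the lymphocyte lists in the Rac2 values was not tested.

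**Figure D4:**
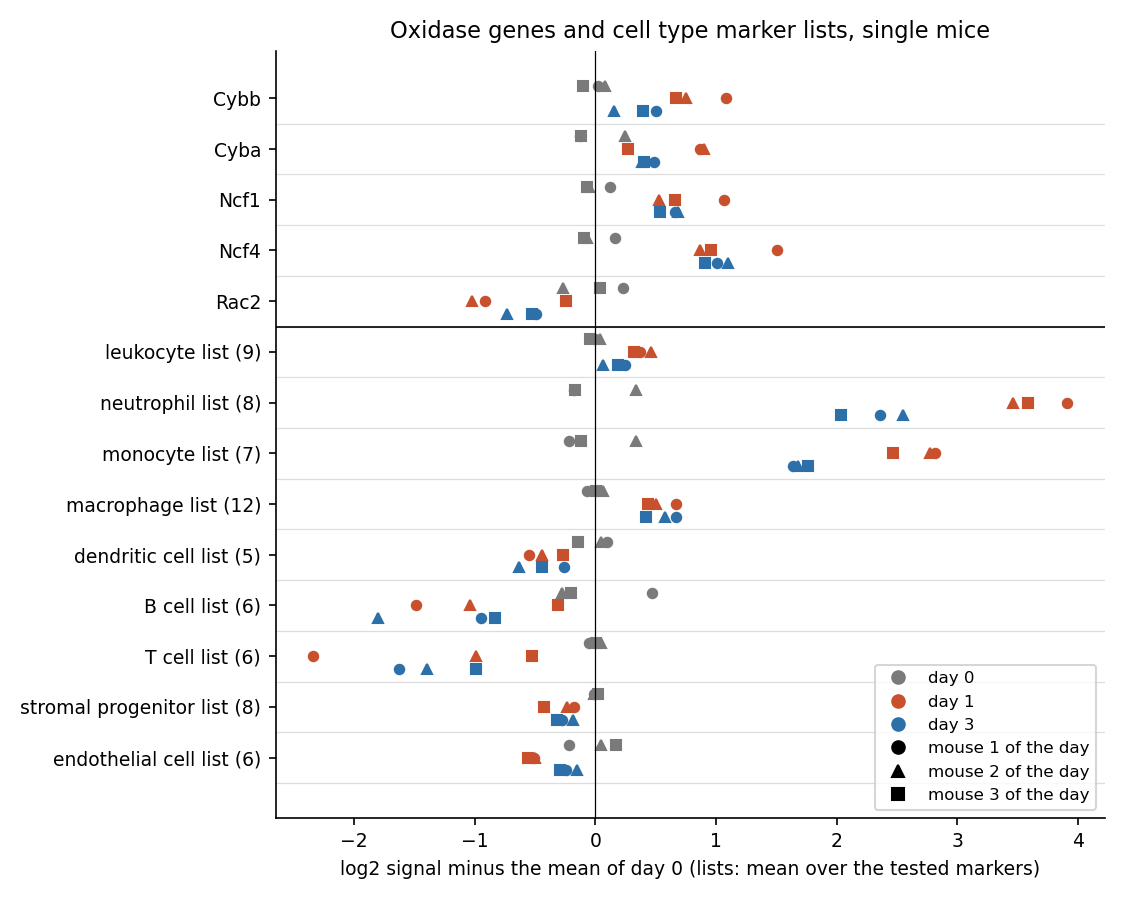
Log2 signal minus the mean of day 0 for the 5 oxidase genes (above the line) and mean over the tested markers of each cell type list (below it, with the number of markers), each symbol 1 mouse. The neutrophil and monocyte lists lie at 1.64 to 3.91 on days 1 and 3, values that include markers not present in every day 0 mouse. Over the 5 markers of each list present in all 9 mice, the values are 1.67 to 3.81 for neutrophils and 0.80 to 1.22 for monocytes. Rac2 lies left of 0 on those days, and so do the B cell, T cell, dendritic cell, stromal progenitor and endothelial cell lists.

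Genes that work around the oxidase were taken as 6 lists by role, 42 genes in all, of which 36 were named on the array and 30 tested. Limma called 6 of them higher and 6 lower on day 1, where 10.7% of all genes were higher and 17.9% lower. Their median change on day 1 was 0.13, and that of all genes -0.13. It called 10 higher and 3 lower on day 3, where 13.6% of all genes were higher and 12.5% lower. The median on day 3 was 0.11, and that of all genes -0.03. The counts of single lists below are to be read beside the same shares. Leaving out 1 mouse took the count lower on day 1 to 2 (without day 1 mouse 1 or day 1 mouse 2), the count higher on day 3 to 5 (without day 0 mouse 3) or 4 (without day 3 mouse 2) and the count lower on day 3 to 5 (without day 1 mouse 3).

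Of the 3 genes for stability of the membrane complex and its proton flux, 1 was lower on day 1, and 1 was higher and 1 lower on day 3. Hvcn1, the voltage-gated proton channel that balances the charge the oxidase moves, had signals of 2250, 1764 and 1774 on day 0, 660, 847 and 1273 on day 1 and 897, 543 and 868 on day 3. It was lower in all mice of both later days, by -1.10 ± 0.24 on day 1 and -1.35 ± 0.24 on day 3 (limma adjusted p = 0.00770 and 0.00221). B cells also express it, and the B cell list above was lower on the same days; its part in the Hvcn1 values was not tested. Nrros, a negative regulator of the catalytic subunit, was higher on day 3 (0.93 ± 0.18, limma adjusted p = 0.00351) and at 0.16 on day 1 (adjusted p = 0.515). Cybc1, needed in mouse and human for the membrane pair to form, was at -0.15 on day 1 and -0.30 on day 3 (limma adjusted p = 0.515 and 0.188).

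Of 10 kinases and lipid enzymes upstream of the oxidase, 2 were higher and 3 lower on day 1 and 2 were higher on day 3. Pla2g4a, the phospholipase that releases arachidonic acid, rose by 0.70 ± 0.13 on day 1 and 0.44 ± 0.13 on day 3 (limma adjusted p = 0.00233 and 0.0242), and the day 3 call was lost without day 0 mouse 1 (adjusted p = 0.0825), day 0 mouse 3 (0.0607), day 3 mouse 1 (0.0618), day 3 mouse 2 (0.0726) or day 3 mouse 3 (0.0761). The protein kinase C genes Prkcb and Prkca, kinases of the family that phosphorylates the organizer, fell by 0.81 and 0.67 on day 1 (limma adjusted p = 0.0203 and 0.00565). The Prkcb call was lost without day 0 mouse 1 (adjusted p = 0.0785), day 1 mouse 1 (0.0785) or day 1 mouse 2 (0.0732), and that of Prkca with the mean of its probe sets (-0.46, adjusted p = 0.0529). On day 3 Prkcb and Prkca were at -0.44 and -0.16 and were not called (limma adjusted p = 0.171 and 0.422). Prkcb passed there without day 1 mouse 3 (adjusted p = 0.0484). Prkca was called higher on day 3 than on day 1 (0.50, limma adjusted p = 0.0334), as were 9.66% of all genes. A further member of the family, Prkcd, chosen after its values were seen, was called higher than on day 0. Its changes were 0.42 ± 0.15 on day 1 and 0.47 ± 0.15 on day 3 (limma adjusted p = 0.0482 and 0.0354). The day 1 call of Prkcd was lost when any mouse but day 0 mouse 1 or day 1 mouse 2 was left out (adjusted p = 0.0669 to 0.167), and the day 3 call without day 0 mouse 2, day 0 mouse 3 or any day 3 mouse (0.0838 to 0.120). The GTPases Rap1b and Rap1a, relatives of Ras found with the membrane pair, were at 0.20 and 0.24 on day 1 and 0.14 and 0.15 on day 3 and were not called, except Rap1b on day 1 after median centring (0.32, adjusted p = 0.0201) and Rap1a on day 1 without day 1 mouse 3 (adjusted p = 0.0182).

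Of 4 tested transcription factors of oxidase genes, Spi1 rose and Irf1 fell on both days. Spi1 had signals of 555, 570 and 551 on day 0, 1569, 984 and 1100 on day 1 and 1380, 1306 and 1301 on day 3. The day 0 mice were close together and all others lay above them, with log2 changes of 1.09 ± 0.16 and 1.25 ± 0.16 (limma adjusted p = 0.000602 and 0.000204). Irf1, a factor induced by interferons, fell by 0.34 on day 1 and by 0.75 on day 3 (limma adjusted p = 0.0356 and 0.000473). Its day 1 call was lost without day 0 mouse 2 (adjusted p = 0.0992), day 0 mouse 3 (0.114), day 1 mouse 1 (0.0947), day 1 mouse 2 (0.0832) or day 3 mouse 1 (0.0564), and with median centring (-0.22, adjusted p = 0.164). The ETS factor Elf1 was lower on day 3 (-0.50 ± 0.16, limma adjusted p = 0.0403), a call lost without day 0 mouse 2 (adjusted p = 0.105), day 0 mouse 3 (0.121), day 3 mouse 1 (0.142) or day 3 mouse 2 (0.131). Irf8, a factor of monocyte development, was at -0.13 and -0.17 and was not called.

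None of the 3 tested genes of other NADPH oxidases was called by limma on either day. Nox4, the oxidase of fibroblasts and vessel walls, was at 0.17 on day 1 and -0.18 on day 3, and Duoxa1, the maturation factor of a dual oxidase, at -0.45 and -0.50. Duoxa1 passed without day 0 mouse 1 on both days (limma adjusted p = 0.0302 and 0.0196).

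Of 6 genes that supply NADPH, 2 were higher on day 1 and 4 on day 3, and none was lower. Pgd, an enzyme of the pentose phosphate pathway that makes NADPH, had signals of 1796, 2170 and 2037 on day 0, 4847, 3866 and 3875 on day 1 and 4113, 4526 and 3862 on day 3. It rose by 1.06 ± 0.12 on each day (limma adjusted p = 0.000142 and 0.000131), and no mouse of days 1 and 3 overlapped with day 0. Taldo1, of the same pathway, rose on day 1 (0.65 ± 0.12, limma adjusted p = 0.00327) and was at 0.27 on day 3, where it passed without day 0 mouse 2 (adjusted p = 0.0479). Idh1, a cytosolic source of NADPH, was called on day 3 (0.63 ± 0.18, limma adjusted p = 0.0235) and not on day 1 (0.31, adjusted p = 0.214). Its day 3 call was lost without day 0 mouse 1 (adjusted p = 0.0639), day 0 mouse 3 (0.0752) or day 3 mouse 2 (0.0965), and it passed on day 1 without day 1 mouse 3 (adjusted p = 0.00455). Pgls was at -0.04 on day 1, 0.08 with median centring, and at 0.27 on day 3, and was not called.

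Of 4 tested enzymes that convert the oxidants, 1 was higher and 1 lower on day 1 and 2 were higher on day 3. Sod2, the mitochondrial superoxide dismutase, had signals of 2590, 2943 and 2687 on day 0, 11575, 7934 and 7636 on day 1 and 4196, 6055 and 4907 on day 3. It had the largest change of all genes named from these lists on day 1, 1.70 ± 0.17, with 0.87 ± 0.17 on day 3 (limma adjusted p = 4.19e-05 and 0.00351), and its groups did not overlap with day 0. Sod3, the extracellular form, was called higher on day 3 (0.66 ± 0.19, limma adjusted p = 0.0266), a call lost without day 0 mouse 2 (adjusted p = 0.0932), day 3 mouse 1 (0.0577) or day 3 mouse 2 (0.114). Cat, catalase, was called lower on day 1 (-0.39 ± 0.13, limma adjusted p = 0.0386), a call lost without day 0 mouse 1 (adjusted p = 0.128), day 0 mouse 3 (0.120), day 1 mouse 1 (0.0704), day 1 mouse 2 (0.124), day 3 mouse 1 (0.0551) or day 3 mouse 3 (0.0559), and with median centring (-0.27, adjusted p = 0.122). Sod1, the cytosolic form, was at 0.10 on day 1 and -0.32 on day 3 and was not called, and its day 1 value was -0.03 after quantile normalization.

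**Figure D5:**
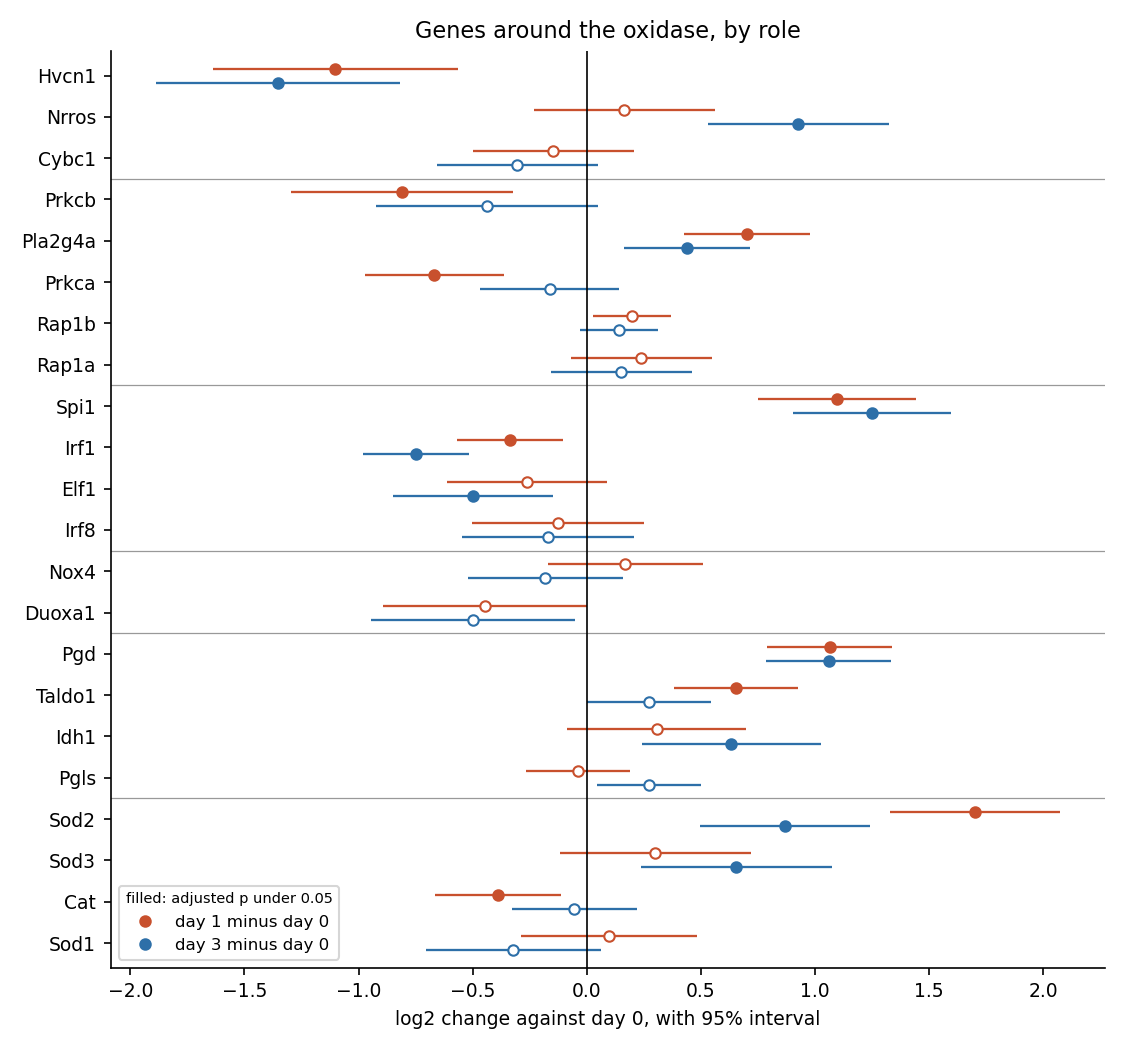
Log2 change against day 0, with 95% interval, on day 1 and day 3 of the 22 genes named from the 6 lists, which horizontal lines separate by role. Filled points passed an adjusted p under 0.05, among them Spi1, Pgd and Sod2 right of 0 and Hvcn1 and Irf1 left of it on both days.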

How the data were processed

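RNA of SVFs of 9 individual mice was hybridised to Affymetrix mouse arrays after 3' in vitro transcription labelling. The deposited files give for each probe set an intensity, the MAS5 signal on a linear scale that the authors had scaled to a common trimmed mean, a detection call and a detection p-value. For the arrays a genome build is not given in the sources used here. Their number, 3 per day, limits the precision.

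Probe sets were named through the platform annotation of GEO, in which 34945 have 1 symbol, 932 several and 9160 none, with 64 controls. A gene was represented by its brightest probe set among those with a present call in all 3 mice of some day. The log2 of the signal, with nothing added, was fitted in limma 3.58.1 in R 4.3.3 (lmFit, contrasts.fit, eBayes with trend), all 9 arrays in 1 fit with 6 residual degrees of freedom. Tests were two-sided with Benjamini-Hochberg adjustment over 11796 genes and a threshold of 0.05. Intervals are unadjusted. The deposited value table of the series equalled the intensity of the single files within 5e-04 percent, and no pair of arrays was identical.

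The members, the gene lists and the tests were chosen with earlier results of these data known. From each list of genes around the oxidase, up to 3 called genes with the largest change and up to 2 genes not called with the highest signal were named, and Prkcd was added after its values were seen. The results of 1 further list are not reported here. For each member the 3 genes with the highest Pearson's r are given. First markers are named for the neutrophil, monocyte, macrophage and general leukocyte lists, and not for the other marker lists. Further markers of these lists were named for their present calls or their changes, after their values were seen. Alternatives were median centring, quantile normalization, 16 or 64 added to the signal, no filter, only probe sets present on 9 arrays, averaging the probe sets of a gene, array weights, eBayes with no variance trend, a fit of just the 6 arrays in a comparison, the replicate number as a block, omission of each mouse, a 2-fold limit and the methods' rule of a 2-fold change with an unadjusted p under 0.05 over the 3 days, here with the mice as independent samples.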

Additional observations from a re-analysis of the deposited data

Results flagged for a closer look

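Cybb was the gene of the oxidase whose change against day 0 differed between days 3 and 1 by a test of the difference itself. Its log2 signal on day 3 minus day 1 was -0.48 ± 0.13 (limma adjusted p = 0.0321, all 3 day 3 mice below all 3 day 1 mice), while the other 4 genes had differences of -0.25 to 0.14 that did not pass. The Cybb call was lost when any of 5 mice was left out, day 1 mouse 1, day 1 mouse 2 or any day 3 mouse (adjusted p = 0.0544 to 0.136), and Cyba passed without day 1 mouse 3 (-0.46, adjusted p = 0.0207).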

How the results depend on the processing

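The changes of the 5 genes against day 0 kept their signs under all alternatives run. Calls of single genes changed as follows. Cybb on day 3 passed with array weights (0.42, limma adjusted p = 0.0122) and with only the 6 arrays compared (0.35, 0.0325), and Cyba on day 3 with array weights (0.48, 0.00629), the 6 arrays (0.43, 0.0132) and the replicate block (0.43, 0.0450). Rac2 on day 3 missed the threshold with no filter (-0.58, 0.0664), no variance trend (-0.58, 0.0738) and the mean of its probe sets (-0.39, 0.129). Cybb on day 3 against day 1 missed it after quantile normalization (-0.35, 0.0966), with no variance trend (-0.48, 0.0616) and with the 6 arrays (-0.48, 0.0546). The cause was not tested. With a 2-fold limit, or the methods' rule, Ncf4 alone stayed called, on both days, and Cybb (0.84), Cyba (0.68), Ncf1 (0.75) and Rac2 (-0.73) on day 1, Ncf1 (0.63) and Rac2 (-0.58) on day 3 and Cybb on day 3 against day 1 (-0.48) did not, since their changes are under 2-fold.

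Leaving out 1 mouse gave log2 changes on day 1 of 0.71 to 0.92 for Cybb, 0.57 to 0.88 for Cyba, 0.60 to 0.87 for Ncf1, 0.91 to 1.24 for Ncf4 and -0.97 to -0.58 for Rac2. On day 3 they were 0.28 to 0.45, 0.36 to 0.55, 0.59 to 0.69, 0.96 to 1.09 and -0.72 to -0.47 in the same order. For day 3 against day 1 they were -0.57 to -0.36, -0.46 to -0.14, -0.24 to 0.030, -0.23 to 0.093 and -0.0051 to 0.38, and the sign turned for Ncf1 (0.030) and Ncf4 (0.093) without day 1 mouse 1 and for Rac2 (-0.0051) without day 1 mouse 2, none of them called. Among the listed genes, signs turned without any call for Pgls on day 1 (0.080 with median centring) and Sod1 on day 1 (-0.030 after quantile normalization, -0.27 with the mean of probe sets, and -0.095 to 0.28 without 1 mouse). Leaving out 1 mouse also turned the sign of Cybc1 (-0.26 to 0.057), Irf8 (-0.23 to 0.0095) and Nrros (-0.0046 to 0.36) on day 1 and of Irf8 (-0.27 to 0.013) and Cat (-0.16 to 0.014) on day 3. Array weights called Duoxa1, Taldo1, Pgls and Sod1 on day 3 (limma adjusted p = 0.0154, 0.0189, 0.0325 and 0.0494), and the mean of probe sets called Elf1 on day 1 (-0.75, 0.0222) and Sod1 on day 3 (-0.52, 0.0206) and lost Elf1 on day 3 (0.150). Irf1 and Cat on day 1 were lost with no filter, no variance trend and the 6 arrays (0.0539 to 0.0787), and Elf1 on day 3 with no filter and no variance trend (0.0620 and 0.0704).

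Over all genes, 1268 were called higher and 2110 lower on day 1, 1600 and 1474 on day 3, and 1140 and 536 on day 3 against day 1. Median centring gave 1272 lower on day 1, and 659 higher and 860 lower on day 3 against day 1. Array weights gave 2228 lower on day 3, and 1718 higher and 896 lower on day 3 against day 1, and the 6 arrays gave 1402 lower on day 1. The 2-fold limit left 430 and 396, 524 and 410, and 245 and 189, and the methods' rule 424 and 328, 522 and 338, and 245 and 200. Without 1 mouse the counts ran from 806 to 1685 and 1000 to 2863 on day 1, 1058 to 1807 and 831 to 1811 on day 3, and 474 to 1823 and 253 to 1000 on day 3 against day 1. Of the listed genes, 3 were lower on day 1 with median centring and with the 6 arrays, 7 were lower on day 3 with array weights, and both fold rules left 3 higher and 1 lower on day 1 and 2 higher and 1 lower on day 3. Without 1 mouse these counts ran from 5 to 7 higher and 2 to 7 lower on day 1 and 4 to 10 higher and 2 to 5 lower on day 3.

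The labels number the mice of each day, but the numbers did not pair them: of 9 pairs with the same number 2 had deviations that correlated over 0.1 (-0.15 to 0.33), and 4 of 9 arrays correlated best with their own number. The replicate block changed the call of Cyba on day 3 and of no other oxidase gene. With 3 mice per day, the day 3 changes of Cybb and Cyba, 1.28-fold and 1.34-fold, did not pass.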
